A study of Homo sapiens with 36 samples.

Results

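Among 36 libraries of HepG2-IGF1R-KO cells, 6 held almost no stromal RNA, and their expression is described here. HepG2 is an established human hepatoma line, and in these cells the gene of the insulin-like growth factor 1 receptor had been edited. The 6 were chosen by 1 measured value, fewer than 10 CPM (counts scaled to a library of 1 M) of the library total for COL1A1, the collagen chain that marks fibroblasts. They were 3 libraries from cells kept in insulin-resistant medium and left untreated (replicates 1 to 3), set against 3 libraries from insulin-stimulated cells in normal medium (replicates 4 to 6). COL1A1 stood at 0.939 to 1.04 CPM of the total in the resistant-medium libraries and at 0.784 to 1.70 CPM in the insulin-stimulated ones. The nearest library outside the threshold had 8071 CPM, and the 30 others reached 31870 CPM.

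The study profiled poly-A RNA from these cells in either medium, with and without insulin, in 9 replicates of each combination. Resistant medium contained human insulin at 1 nM, glucose at 20 mM and palmitic, linoleic and oleic acids at 0.5 mM, given for 72 h. Whether 0.5 mM refers to each acid or to their sum is not stated in the labels. Insulin stimulation was 3 nM human insulin for 18 h. All cells carried the IGF1R edit and grew in DMEM with serum, and all samples bear the same 72 h label. The untreated resistant-medium cells had therefore met low-dose insulin with fatty acids and glucose, and the stimulated cells a higher dose for a shorter time, so the comparison changes several agents at once. It shows a difference between these conditions and does not by itself say which condition moved, since none of the 6 libraries came from untreated cells in normal medium. IGF1R transcripts were counted in every library, at 73.3, 78.0 and 90.4 CPM in resistant medium and 87.9, 104 and 83.9 CPM after insulin in normal medium. The groups overlapped, and as no library of unedited cells was used here, these counts do not check the edit. The replicates are separate samples by label only, so the p-values measure the spread between these samples, which may be technical.

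As background, insulin binding to its receptor activates PI3K and AKT, which keep FOXO1 out of the nucleus and lower the transcription of genes for glucose output, and activates ERK and mTORC1, which raise growth and protein synthesis genes. A higher load of secretory protein engages the unfolded protein response of the endoplasmic reticulum (ER), which induces chaperones and, through PERK and ATF4, amino acid synthesis genes and DDIT3. Saturated fatty acids and inflammatory cytokines can activate NF-kB, which induces chemokines, adhesion molecules and its own inhibitors in hepatocytes.

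The 6 libraries held hepatoma transcripts throughout. The 19 hepatoma markers summed to 41840 to 43540 CPM of the library total in resistant medium and 44710 to 46810 CPM after insulin, against 15080 to 39270 CPM in the 30 others. Of 22 stromal markers, 14 lay below 1 CPM in all 6 libraries and DCN, POSTN, FAP, TWIST1 and MFAP5 had no counts. Their sums were 180 to 187 CPM in resistant medium and 183 to 221 CPM after insulin, against 23620 to 80610 CPM in the other libraries. The list includes COL1A1, by which the libraries were chosen, so the gap to the other libraries was in large part fixed by that choice. Depth was 26.6 to 28.9 M estimated counts in resistant medium and 30.6 to 66.9 M after insulin. Mitochondrially encoded transcripts took 5.06% to 5.73% of reads in resistant medium and 4.04% to 5.50% after insulin. In each group the 3 libraries occupy consecutive positions of the library codes, so group and library set cannot be told apart. In bulk RNA, fewer cells of a type and less RNA per cell cannot be told apart either.

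Resistant medium and acute insulin gave widely different transcriptomes. Of 14835 genes tested with edgeR, 7813 (52.7%) differed at an adjusted p under 0.05, 3842 of them higher in resistant medium (25.9%) and 3971 lower (26.8%). At a change of at least 2-fold, 1118 genes were higher (7.54%) and 435 lower (2.93%). The division into higher and lower rests on scaling: upper-quartile scaling gave 4777 higher and 3057 lower, and library totals with no composition factor gave 5426 and 2464. A fit of all 36 libraries with a batch term, which also changed the libraries and the genes tested, gave 4557 and 2828. The median log2 fold change of all genes was 0.0033 in the main scaling, 0.10 with upper-quartile scaling and 0.17 with library totals, so a change near those sizes has no fixed sign. Libraries of 2 dated batches occurred in both groups. Of the 7813 genes, 6943 stayed past the threshold in the same direction with batch as a term, which takes up the lone 24 May library, insulin replicate 4. Within the 22 April batch 7808 of them kept their direction and within the 11 April batch 7802, but they were called on these same libraries, so those counts were all but fixed by the calls and support nothing further.

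Replicates were closer within resistant medium than within the insulin group. Log CPM correlated at 0.991 to 0.993 between resistant-medium libraries, 0.987 to 0.989 between insulin-stimulated libraries and 0.962 to 0.970 across the groups. A chi-square of the counts per gene was 4.18 to 8.84 between resistant-medium libraries, 23.3 to 53.1 between insulin-stimulated libraries and 116 to 161 across the groups. It grows with depth, which was 26.6 to 28.9 M counts in resistant medium and 30.6 to 66.9 M after insulin. Resistant-medium replicates 1 and 3 share the 22 April batch, whereas the insulin libraries each have a batch date of their own. The part of depth and batch in these spreads was not tested. A share of called genes near 26% in either direction is the background of this comparison, against which each list below is read. Of the 7813 called genes, 7697 (98.5%) had groups that did not overlap. Separation without overlap, given for genes below, therefore goes with being called and singles out no gene.

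The highest genes in resistant medium over acute insulin were led by HDAC9, a class IIa histone deacetylase, and PTAFR, the receptor for platelet-activating factor. HDAC9 had 15.1, 14.2 and 13.9 CPM in resistant medium, against 0.357, 0.403 and 0.102 CPM after insulin. Its fitted log2 fold change was 5.53, but it passed the filter on low counts only through resistant medium, where it is high, so no test of that change is given. The genes of this paragraph and the next were picked for their fold and for groups that do not overlap, so their separation is a description. PTAFR had 23.2, 23.9 and 22.7 CPM in resistant medium, against 0.761, 0.663 and 1.02 CPM after insulin, a 29.0-fold difference (adjusted p = 4.28e-08). UBD, a ubiquitin-like modifier induced by interferon and tumour necrosis factor, had 424, 430 and 362 CPM in resistant medium and 27.5, 14.2 and 27.9 CPM after insulin. CTSS, the protease that trims the invariant chain for antigen presentation, had 28.2, 26.3 and 24.8 CPM in resistant medium and 1.97, 2.25 and 1.77 CPM after insulin. Neither gene's groups overlapped, with 17.4-fold and 13.2-fold higher expression in resistant medium. The others of the 10 highest were OR2I1P (4.30 on the log2 scale), LINC02015 (3.92), GPRC5B (3.87), BIRC3 (3.44), C1orf116 (3.23) and C1S (3.16). OR2I1P is a pseudogene that lies beside UBD, so its reads are of uncertain origin.

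At the other end stood AKR1C2, an aldo-keto reductase of steroid metabolism and a target of NRF2. AKR1C2 had 21.8, 23.2 and 24.5 CPM in resistant medium, against 187, 164 and 225 CPM after insulin, and was 8.29-fold lower (adjusted p = 1.85e-07). AKR1C2 is nearly identical in sequence to AKR1C1, which was 2.48-fold lower, so reads may be divided between them uncertainly. KLF15, a regulator of amino acid use and gluconeogenesis, had 2.16, 3.00 and 2.81 CPM in resistant medium and 16.7, 13.2 and 13.2 CPM after insulin. IL11, a cytokine of the interleukin 6 family, had 5.64 to 6.93 CPM in resistant medium and 24.4 to 41.7 CPM after insulin. In both genes every resistant-medium library was below every insulin-stimulated one. KLHDC7B (-2.95 on the log2 scale), SLC22A15 (-2.95), KCNE3 (-2.49), DDIT3, EGR1, HERPUD1 and HSPA5 completed the 10 lowest, and the last 4 are described with their groups.

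**Figure D1:**
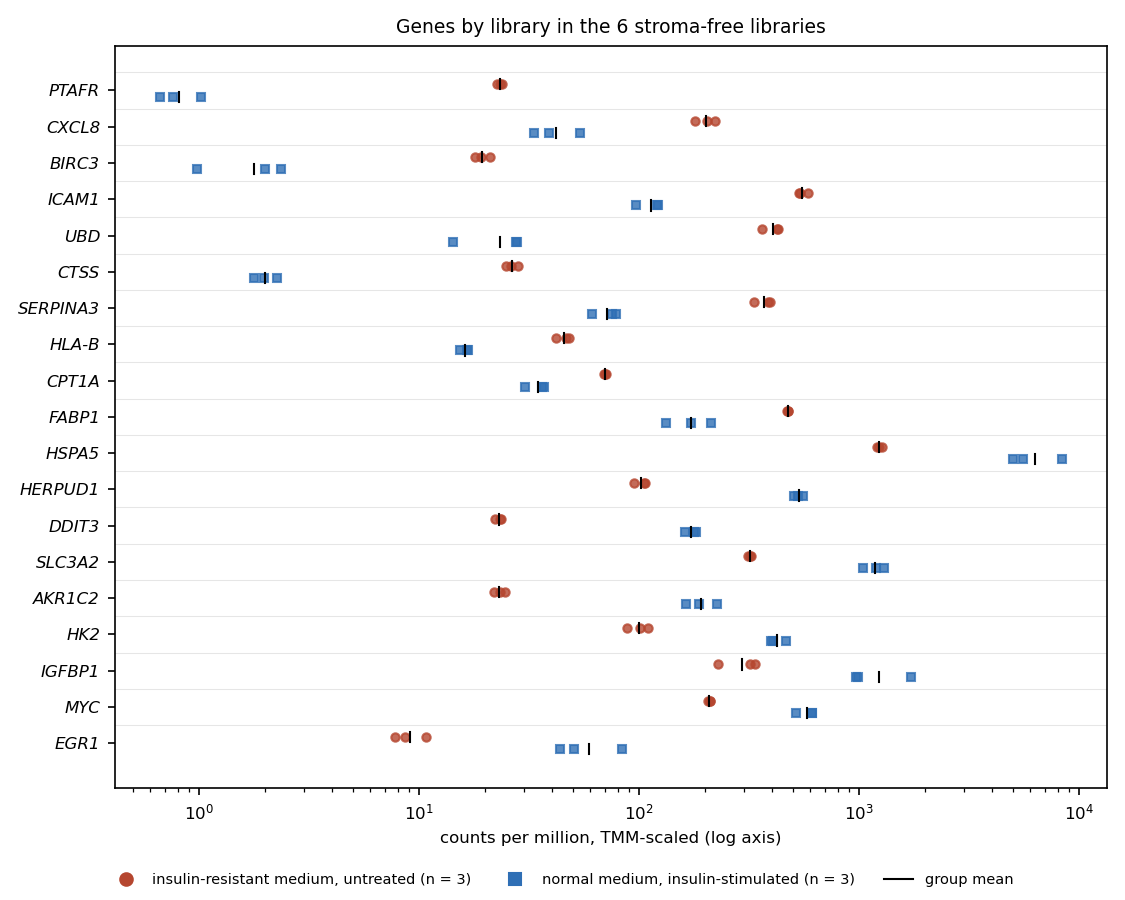
CPM of 19 genes in each of the 6 stroma-free libraries on a log axis, with resistant-medium libraries as circles above insulin-stimulated libraries as squares and a black line at each group mean. The groups are apart for every gene shown, with PTAFR near 23 CPM in resistant medium and near 1 CPM after insulin, and HSPA5 in the opposite order.

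NF-kB target and pathway genes were higher in resistant medium as a group. Of 22 tested members of 30, 19 were higher and 1 lower, against the 25.9% and 26.8% of all genes, with a median log2 fold change of 1.99. Members that passed the filter on low counts only through resistant medium, such as LTB below, were bound to be higher. CXCL8, the neutrophil chemokine interleukin 8, had 204, 221 and 179 CPM in resistant medium, against 33.2, 38.9 and 54.0 CPM after insulin, 4.82-fold higher (adjusted p = 1.03e-05). ICAM1, an adhesion molecule for leukocytes, had 538, 584 and 535 CPM in resistant medium and 122, 96.8 and 121 CPM after insulin, 4.88-fold higher. TNFAIP3, the deubiquitinase A20 that restrains NF-kB, had 243, 235 and 237 CPM in resistant medium and 41.1, 26.8 and 35.1 CPM after insulin, 6.93-fold higher. BIRC3, an inhibitor of apoptosis in the same pathway, had 18.0, 21.1 and 19.1 CPM in resistant medium and 1.99, 0.98 and 2.35 CPM after insulin. All 4 genes separated the groups without overlap, as did 98.5% of all called genes. CXCL5, another neutrophil chemokine, had 8.56, 9.14 and 7.93 CPM in resistant medium, against 0.544, 0.231 and 0.409 CPM after insulin. Lymphotoxin beta, LTB, had 4.66, 4.39 and 4.89 CPM in resistant medium and 0.0155, 0.0576 and 0 CPM after insulin. CCL20 and RELA, the p65 subunit, sat near the threshold. CCL20 was 1.28-fold higher with overlapping groups, and leaving out any library but insulin replicate 6 ended its call, with adjusted p up to 0.174. RELA was 1.16-fold lower (adjusted p = 0.0159), and lost its call when any resistant-medium library was left out, with adjusted p up to 0.0672.

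Promoter windows of TNFAIP3 and BIRC3 are shown because both genes separated the groups by more than 6-fold and both windows hold matches to the NF-kB consensus. Each window runs from 250 bases before to 50 bases after the RefSeq gene start in GRCh38.p14, 5′ to 3′ on the gene's strand, with the matches in capitals. TNFAIP3 lies on the + strand at chr6:137867009-137867308 and BIRC3 on the + strand at chr11:102317234-102317533.
TNFAIP3: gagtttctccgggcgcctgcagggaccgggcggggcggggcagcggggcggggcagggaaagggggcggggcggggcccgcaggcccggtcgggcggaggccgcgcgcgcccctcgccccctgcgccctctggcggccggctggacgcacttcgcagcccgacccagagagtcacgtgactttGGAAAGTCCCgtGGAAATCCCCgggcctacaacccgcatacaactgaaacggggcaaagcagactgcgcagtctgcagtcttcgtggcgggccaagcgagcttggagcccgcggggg
BIRC3: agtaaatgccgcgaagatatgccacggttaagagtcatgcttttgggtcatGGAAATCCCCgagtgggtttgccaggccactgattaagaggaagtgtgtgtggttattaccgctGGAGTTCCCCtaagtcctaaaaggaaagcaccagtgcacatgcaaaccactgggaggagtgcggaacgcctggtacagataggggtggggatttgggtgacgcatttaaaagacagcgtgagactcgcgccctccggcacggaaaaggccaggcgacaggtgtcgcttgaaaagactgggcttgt
Both windows have 2 matches on either strand to the 10-base kappaB consensus. Among the tested list members with a window, 13 of 19 (68.4%) held such a match, against 3619 of 27305 genes (13.3%). The list was built from known NF-kB targets, so that share describes the list and not the comparison, and among its members called with a change of at least 2-fold it was 9 of 14 (64.3%). A match is a run of letters and not a site shown to be bound.

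Interferon-response and antigen presentation genes were also higher, with 23 of 26 tested members higher, none lower and a median log2 fold change of 1.02. TAPBP, which loads peptides on MHC class I molecules, had 219, 227 and 209 CPM in resistant medium, against 62.6, 55.1 and 59.2 CPM after insulin (adjusted p = 2.05e-07). HLA-B, a class I heavy chain, had 48.0, 46.3 and 41.9 CPM in resistant medium and 16.6, 16.5 and 15.3 CPM after insulin. OAS1, an interferon-induced sensor of double-stranded RNA, had 40.1, 38.5 and 37.3 CPM in resistant medium and 13.9, 14.2 and 16.1 CPM after insulin. For each of the 3 genes, every resistant-medium library was higher. Class I heavy chains share long stretches of sequence, so the division of reads among them is uncertain.

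Plasma and acute phase proteins, only some of which NF-kB and STAT3 induce in the liver, did not move as one. Of 23 tested plasma and acute phase proteins, 9 were higher and 11 lower, and the median was -0.10, against 0.10 within the 22 April batch. SERPINA3, an acute phase protease inhibitor, had 394, 386 and 333 CPM in resistant medium and 78.4, 61.4 and 75.3 CPM after insulin, 5.17-fold higher. Haptoglobin (HP) and complement C3 were 2.63-fold and 1.91-fold higher in resistant medium. Albumin (ALB), a carrier protein on the same list, had a log2 fold change of -0.58, with 8610, 9170 and 8150 CPM in resistant medium and 13400, 13100 and 12400 CPM after insulin. Fibrinogen chains FGA, FGB and FGG were 1.60-fold, 1.61-fold and 1.72-fold lower. For each of these 7 genes the groups did not overlap, as for 98.5% of all called genes.

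Markers of leukocytes moved with the inflammatory genes. Their 12-marker sum was 2097 to 2451 CPM of the library total in resistant medium and 732 to 911 CPM after insulin, and 4 of 6 tested markers were higher. Lysozyme, LYZ, made up most of that sum in every library, with 2420, 2350 and 2070 CPM of the total in resistant medium and 788, 713 and 894 CPM after insulin. ITGAM, the alpha M integrin, had 5.23, 4.50 and 4.70 CPM in resistant medium and 0.171, 0.0864 and 0.205 CPM after insulin. The defining markers PTPRC, MS4A1, CSF1R and TYROBP had no count in any of the 6 libraries. Cholangiocyte markers summed to 2000 to 2049 CPM in resistant medium and 1243 to 1550 CPM after insulin, with KRT19 1.56-fold higher. Endothelial marker sums overlapped, at 25.7 to 27.3 CPM in resistant medium and 24.5 to 31.1 CPM after insulin, most of it ESAM. Of 4 tested endothelial markers 2 were higher and 1 lower, and VWF had 0.899, 0.821 and 0.783 CPM in resistant medium and 0.311, 0.231 and 0.136 CPM after insulin. KDR, ERG and EMCN had no counts. The part of these cell markers in the inflammatory difference was not tested.

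Chaperones and sensors of the unfolded protein response were lower in resistant medium than after acute insulin. Of 23 tested members, 22 were lower and none higher, 13 of them by at least 2-fold, with a median log2 fold change of -1.25. HSPA5, the ER chaperone BiP, had 1200, 1230 and 1270 CPM in resistant medium, against 5030, 8350 and 5580 CPM after insulin, 5.12-fold lower (adjusted p = 8.52e-06). Insulin replicate 5 was the highest, and no resistant-medium library came near the insulin range. HERPUD1, a component of ER-associated degradation, had 105, 106 and 95.0 CPM in resistant medium and 505, 529 and 558 CPM after insulin. SDF2L1, an ER co-chaperone, had 28.9, 26.8 and 30.4 CPM in resistant medium and 133, 107 and 123 CPM after insulin. DNAJB9, a BiP co-chaperone, had 42.6, 44.0 and 45.6 CPM in resistant medium and 154, 197 and 197 CPM after insulin. Changes were 5.20-fold, 4.21-fold and 4.13-fold, all lower in resistant medium without overlap, the usual case among called genes (98.5%).

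Windows of HSPA5 and HERPUD1 are shown because these 2 chaperone-group genes were among the 10 lowest of all and each holds a form of the ER stress response element. HSPA5 lies on the - strand at chr9:125241294-125241593 and HERPUD1 on the + strand at chr16:56931892-56932191, in the same build and orientation as the windows above, with the element in capitals.
HSPA5: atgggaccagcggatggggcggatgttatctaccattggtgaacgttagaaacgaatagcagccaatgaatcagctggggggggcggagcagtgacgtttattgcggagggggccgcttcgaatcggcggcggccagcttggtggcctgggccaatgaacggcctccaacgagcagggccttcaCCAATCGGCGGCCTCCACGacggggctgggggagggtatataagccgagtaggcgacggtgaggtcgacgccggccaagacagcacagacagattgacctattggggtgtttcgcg
HERPUD1: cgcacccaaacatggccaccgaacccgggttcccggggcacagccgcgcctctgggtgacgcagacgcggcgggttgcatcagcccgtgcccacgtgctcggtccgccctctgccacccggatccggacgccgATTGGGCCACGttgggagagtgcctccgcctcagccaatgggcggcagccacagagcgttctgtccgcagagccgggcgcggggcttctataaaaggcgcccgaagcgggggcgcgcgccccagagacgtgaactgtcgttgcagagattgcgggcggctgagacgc
The element in HSPA5 is of the form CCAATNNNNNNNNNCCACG, which 7 of 22 tested members with a window held (31.8%), against 25 of 27305 genes (0.0916%). HERPUD1 holds the second form, ATTGGNCCACG, present in 3 of 22 members (13.6%) and in 19 of 27305 genes (0.0696%). Both strands were searched, and the forms share the letters CCACG. These elements are part of how the chaperone group is known, so the counts describe the list and not the comparison.

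ATF4 targets and amino acid synthesis genes were lower throughout, with 25 of 25 tested members lower, 14 by at least 2-fold, and a median of -1.10. DDIT3, the transcription factor CHOP, had 23.2, 23.6 and 22.2 CPM in resistant medium, against 177, 161 and 181 CPM after insulin, 7.52-fold lower (adjusted p = 3.14e-08). PPP1R15A, which returns the phosphorylated initiation factor eIF2 to its active form, had 51.6, 54.6 and 53.4 CPM in resistant medium and 228, 290 and 249 CPM after insulin. SLC3A2, the heavy chain of large amino acid transporters, had 313, 318 and 322 CPM in resistant medium and 1300, 1040 and 1190 CPM after insulin. SESN2, a sestrin that restrains mTORC1, was 3.29-fold lower. In these genes the resistant-medium replicates spanned a range far narrower than the distance between the groups.

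Growth-related groups followed the same order. All 25 tested ribosome biogenesis genes were lower in resistant medium, with a median of -0.82, and 18 of 22 MAPK feedback and immediate early genes were lower with none higher (1 without insulin replicate 5), with a median of -0.80. MYC, which drives ribosome production, had 205, 209 and 211 CPM in resistant medium, against 611, 518 and 609 CPM after insulin, 2.78-fold lower. EGR1, an immediate early transcription factor induced by ERK, had 7.76, 8.67 and 10.8 CPM in resistant medium and 43.9, 83.8 and 50.5 CPM after insulin. ERRFI1, a feedback inhibitor of the EGF receptor, averaged 114 ± 4.05 CPM in resistant medium and 384 ± 38.9 CPM after insulin (SD, n = 3 each). None of these genes had overlapping groups, like 98.5% of all called genes. Ligands and receptors of the EGF family were divided, 5 of 10 higher and 4 lower: EREG had 65.6, 70.6 and 78.9 CPM in resistant medium and 129, 243 and 191 CPM after insulin, whereas TGFA was 1.64-fold and ERBB3 1.38-fold higher in resistant medium. Without resistant-medium replicate 2, 3 of the family were higher. Cell cycle genes showed 8 higher and 10 lower of 25, with CDC6, the licensing factor of replication, 2.16-fold lower and PCNA, the polymerase clamp, 1.65-fold higher.

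NRF2 targets were mostly lower, 17 of 23 with 2 higher and a median of -0.59, and none was higher without resistant-medium replicate 1 and 1 without resistant-medium replicate 3. GCLC, the catalytic subunit of glutathione synthesis, had 86.3, 90.5 and 87.6 CPM in resistant medium, against 267, 315 and 322 CPM after insulin, 3.42-fold lower. SRXN1, sulfiredoxin, was 2.27-fold lower. Of 19 hypoxia-response genes 9 were lower and 3 higher, with VEGFA 2.43-fold lower in resistant medium, and of 20 p53 targets 7 were lower and 6 higher, with GDF15, a stress cytokine, at 290, 288 and 284 CPM in resistant medium and 824, 765 and 807 CPM after insulin. Metallothioneins and iron genes were 6 higher and 7 lower of 18. MT1E had 10.3, 9.35 and 8.97 CPM in resistant medium and 1.60, 1.70 and 2.49 CPM after insulin, and MT1F, MT1G and MT1X were 5.58-fold, 6.89-fold and 2.25-fold higher, while ID1, a target of bone morphogenetic protein signals, was 2.74-fold lower. Metallothionein genes are close paralogs whose reads can be shared.

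**Figure D2:**
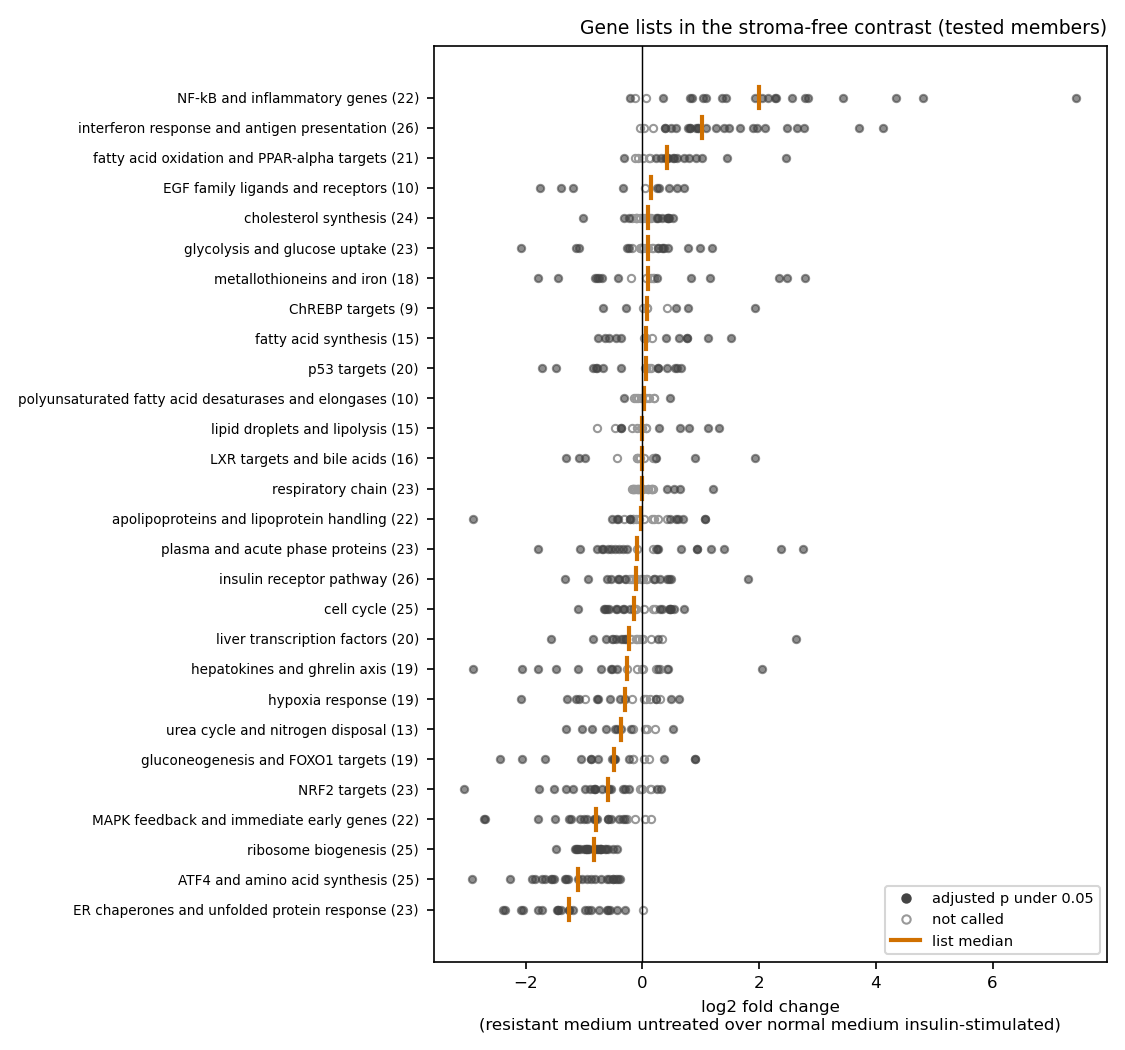
Log2 fold changes of the tested members of each gene list (dark circles, adjusted p under 0.05; open circles, not called), ordered by list median (orange line), with the number tested in brackets. The medians run from -1.25 for ER chaperones to 1.99 for NF-kB and inflammatory genes.

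Genes of glucose metabolism were divided. HK2, the insulin-responsive hexokinase, had 87.8, 101 and 110 CPM in resistant medium, against 404, 465 and 397 CPM after insulin, 4.23-fold lower, and the glucose transporter SLC2A1 was 2.21-fold lower. Of 23 glycolysis and glucose uptake genes 7 were higher and 5 lower, with PFKFB4 2.30-fold and the hexokinase HK1 1.97-fold higher, and without insulin replicate 6 only 4 were higher. Among 19 tested genes of gluconeogenesis and FOXO1 targets, 12 were lower and 3 higher, with a median of -0.48. IGFBP1, which binds insulin-like growth factors and is repressed by insulin through FOXO1, had 228, 335 and 320 CPM in resistant medium and 972, 1730 and 993 CPM after insulin, 4.18-fold lower (adjusted p = 0.000824). TAT, tyrosine aminotransferase, was 3.19-fold lower. PCK1, the rate-limiting enzyme of gluconeogenesis, had 4.06, 4.39 and 4.50 CPM in resistant medium and 6.40, 5.19 and 6.45 CPM after insulin, 1.39-fold lower (adjusted p = 0.0139), and it lost its call without resistant-medium replicate 1 (adjusted p = 0.0627). G6PC1, whose product releases free glucose from its phosphate, was too low to test, with 16, 10 and 5 reads in resistant medium and 16, 7 and 3 after insulin. Insulin receptor pathway genes were 6 higher and 7 lower of 26. INSR itself had 65.6, 69.4 and 74.3 CPM in resistant medium and 75.0, 85.8 and 72.7 CPM after insulin, which overlapped (adjusted p = 0.137), and IRS2 was too low to test.

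Lipid genes pointed in several directions. Fatty acid oxidation and PPAR-alpha targets were mostly higher, 14 of 21 with 1 lower and a median of 0.43. CPT1A, which admits long-chain fatty acids to mitochondria, had 69.7, 69.6 and 71.0 CPM in resistant medium, against 36.3, 30.3 and 37.0 CPM after insulin. FABP1, the liver fatty acid binding protein, had 475, 468 and 476 CPM in resistant medium and 173, 133 and 213 CPM after insulin. VNN1, a pantetheinase and PPAR-alpha target, had 28.1, 34.6 and 29.8 CPM in resistant medium and 4.35, 7.46 and 5.25 CPM after insulin. Each of these 3 rose in all resistant-medium libraries relative to all insulin-stimulated libraries, by 2.03-fold, 2.73-fold and 5.48-fold.

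Fatty acid synthesis genes were 6 higher and 5 lower of 15. SREBF1, the insulin-induced regulator of lipogenesis, had 115, 121 and 120 CPM in resistant medium and 191, 146 and 146 CPM after insulin, 1.36-fold lower. FASN, fatty acid synthase, was 1.29-fold lower (adjusted p = 0.0243) but passed no threshold without resistant-medium replicate 1 or 2, with adjusted p up to 0.0932. SCD, the delta-9 desaturase, had 2770, 3040 and 3050 CPM in resistant medium and 2790, 3040 and 2890 CPM after insulin, and its groups overlapped (adjusted p = 0.836). PNPLA3, a lipid droplet hydrolase, had 33.3, 33.7 and 34.5 CPM in resistant medium and 17.9, 13.2 and 15.0 CPM after insulin. FADS1, the delta-5 desaturase, was 1.24-fold lower, and its list of 10 desaturases and elongases had 1 member higher and 1 lower. Cholesterol synthesis genes were 8 higher and 3 lower of 24 with changes of at most 2.02-fold, the largest in STARD4, a sterol carrier that was lower, and only 4 were higher without resistant-medium replicate 2 and 5 without resistant-medium replicate 3. Among droplet genes 5 of 15 were higher and 2 lower, with CIDEC, a droplet fusion protein, 2.50-fold higher and PLIN2, the main hepatic droplet coat, 1.29-fold lower, and 4 were lower without insulin replicate 6. ChREBP targets had 3 higher and 2 lower of 9, or 5 higher without insulin replicate 4, and the glycolytic PKLR had 16.3, 15.0 and 15.4 CPM in resistant medium and 9.77, 8.04 and 9.10 CPM after insulin. TXNIP, also on the ChREBP list, was not found by symbol in the annotation used and is missing from that count.

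Secreted proteins and transport genes completed the lists. ANGPTL8, an insulin-induced regulator of lipoprotein lipase, had 20.9, 21.8 and 20.4 CPM in resistant medium, against 30.2, 27.6 and 27.1 CPM after insulin, and was 1.35-fold lower. Apolipoprotein and lipoprotein genes were 6 higher and 6 lower of 22, with LIPC, hepatic lipase, 2.10-fold higher. LXR and bile acid genes were 3 higher and 3 lower of 16, or 5 higher without insulin replicate 4, with CYP7A1, the rate-limiting enzyme of bile acid synthesis, 2.48-fold lower and CYP8B1, which makes cholic acid, 3.80-fold higher. Of 19 hepatokine and ghrelin axis genes, 3 were higher and 9 lower. IGFBP2, another binding protein, had 32.9, 33.5 and 36.1 CPM in resistant medium and 7.88, 6.86 and 10.2 CPM after insulin. LEAP2, the liver-made antagonist of the ghrelin receptor, had 1.93, 2.39 and 1.70 CPM in resistant medium and 1.99, 1.18 and 1.64 CPM after insulin, overlapping groups with a log2 fold change of 0.30 ± 0.24 (SE). FGF21 was too low to test, with 2, 5 and 2 reads in resistant medium and 28, 11 and 15 after insulin. Hepcidin, HAMP, had 0.799, 0.571 and 0.816 CPM in resistant medium and 3.34, 0.692 and 3.48 CPM after insulin (adjusted p = 0.0236). Insulin replicate 5 lay inside the resistant-medium range, and within the 22 April batch the log2 fold change of HAMP was 0.20. Its call was lost without insulin replicate 4 or any 1 resistant-medium library, with adjusted p up to 0.0966.

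Liver transcription factors were 2 higher and 8 lower of 20, with CEBPB, a factor induced by stress and cytokines, 2.94-fold lower and GATA6, an endoderm factor, at 34.4, 33.6 and 32.3 CPM in resistant medium and 6.17, 4.84 and 4.88 CPM after insulin. Urea cycle and nitrogen disposal genes were 8 lower and 1 higher of 13, with NAGS, which makes the activator of the cycle, 2.47-fold lower and ASS1, argininosuccinate synthase, 1.45-fold higher. Respiratory chain genes were 4 of 23 higher and none lower, with a median of -0.0043 that has no fixed sign, but 5 were lower without insulin replicate 5, 7 were higher without insulin replicate 6 and 11 were higher in the 22 April batch alone. Hepatoma markers were 3 higher and 11 lower of 19, with no change of 2-fold.

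The same labelled comparison could be made in 12 stroma-bearing libraries that share no sample with the 6, 6 from untreated cells in resistant medium and 6 from insulin-stimulated cells in normal medium. There 4439 of 17341 genes (25.6%) were called, 2506 higher (14.5%) and 1933 lower (11.1%). Batches were unbalanced: resistant-medium replicates 4 to 6 were of 24 May, but of the insulin-stimulated libraries only replicate 2 was. With batch as a term, 3116 genes were higher and 2441 lower. The counts that follow are without that term. Of 7793 genes called in the stroma-free libraries and tested in both, 6904 (88.6%) had the same direction and 3374 (43.3%) were called in it, while 27 were called in the opposite direction. Over all 14780 genes tested in both, 11479 (77.7%) had the same direction. Those 3374 genes were 81.1% of the 4161 genes called in the stroma-bearing libraries and tested in both. Across 14780 genes the log2 fold changes had a Pearson r of 0.70 and a Spearman rho of 0.70, as a description over genes that are not independent. Among NF-kB genes 17 of 26 were higher and none lower, among ER chaperones 19 of 23 lower and none higher, among ATF4 genes 14 of 26 lower and none higher, and among ribosome biogenesis genes 20 of 25 lower and none higher. PTAFR differed by 4.83 on the log2 scale there, ICAM1 by 2.45, CXCL8 by 2.58, AKR1C2 by -2.55, HSPA5 by -1.45 and HK2 by -1.66, each called. For these 6 genes the test of the difference between the sets of libraries gave edgeR adjusted p of 0.233 (HSPA5) to 0.950 (PTAFR), which does not show that the changes were equal.

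**Figure D3:**
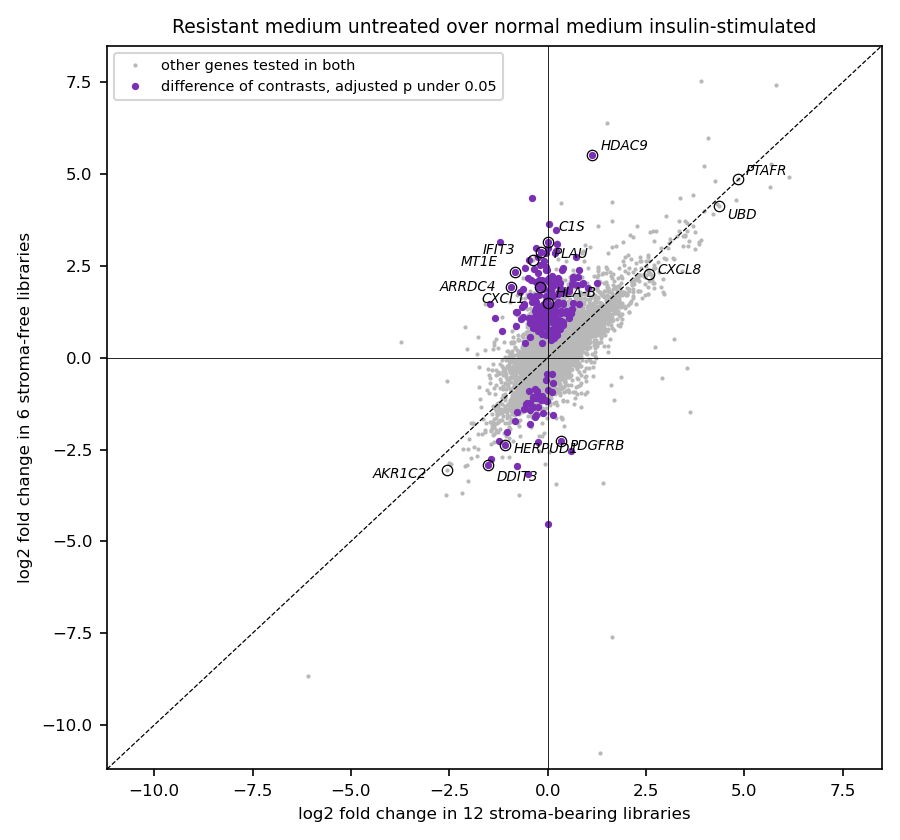
Log2 fold change of resistant medium untreated over normal medium with insulin in the 6 stroma-free libraries (vertical axis) against the 12 stroma-bearing libraries (horizontal axis) for genes tested in both, with equal values on the dashed line. Purple points mark an adjusted p under 0.05 for the difference, and most lie above the line near 0 on the horizontal axis, such as C1S and HLA-B.

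The difference of the 2 contrasts was called for 251 of 18488 genes (1.36%), 207 of them with the stroma-free value above the stroma-bearing one (1.12%) and 44 below it (0.238%). Leaving out 1 stroma-free library lowered these counts to between 69 and 94 above and between 9 and 25 below, with the fewest above without resistant-medium replicate 2 and the fewest below without resistant-medium replicate 1. With batch as a term the counts were 113 above and 115 below, and with a minimum count of 100 they were 177 and 120, so the excess above 0 depends on the fit. HDAC9 differed most among the 10 highest and 10 lowest genes, with 5.53 in the stroma-free and 1.14 in the stroma-bearing libraries, a difference of 4.50. Those genes were picked for their stroma-free fold, which enters this difference, so their differences are a description and no p-value is given. The feature ENSG00000117289, which has no symbol in the annotation used, was singled out after its values were seen: it had 35.7, 41.1 and 40.1 CPM in resistant medium and 1.69, 2.36 and 1.71 CPM after insulin, and its contrast of 4.36 was -0.39 in stroma-bearing libraries. C1S, a complement protease, had a contrast of 3.16 in the stroma-free and 0.0011 in the stroma-bearing libraries, a difference of 3.24. Within stroma-bearing replicates 7 to 9 alone the C1S contrast was -0.53. Of the library total, C1S took 76.5 to 98.5 CPM in resistant medium and 6.46 to 10.8 CPM after insulin in the stroma-free libraries, against 147 to 216 CPM and 74.2 to 247 CPM in the stroma-bearing ones. HLA-B showed the same kind of levels, 44.4 to 51.0 CPM in resistant medium and 14.7 to 16.0 CPM after insulin without stroma, and 199 to 254 CPM and 112 to 252 CPM with it. IGFBP2 had 35 to 38.2 CPM in resistant medium and 6.25 to 9.77 CPM after insulin without stroma, and 54.8 to 102 CPM and 44.5 to 84.0 CPM with it. In these 3 genes the stroma-bearing libraries held more transcript, in overlapping groups, and the part of stromal RNA in the difference was not tested.

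DDIT3 and HERPUD1 had another pattern of levels, and they stand for few members of their lists: the difference was called for 5 of 26 genes of the ATF4 list and 1 of 23 of the ER chaperone list. DDIT3 took 23.5 to 24.8 CPM of the total in resistant medium and 147 to 173 CPM after insulin in the stroma-free libraries, against 26.8 to 34.6 CPM and 76.1 to 124 CPM in the stroma-bearing ones, and its contrasts differed by -1.32. HERPUD1 took 101 to 112 CPM in resistant medium and 482 to 535 CPM after insulin without stroma, against 122 to 163 CPM and 264 to 361 CPM with it, a difference of -1.23. For both genes the insulin-stimulated levels were higher in all 3 stroma-free libraries than in all 6 stroma-bearing ones. These are shares of the library total, and the hepatoma markers together had the same order. Their sum was 44710 to 46810 CPM after insulin without stroma, against 15080 to 39270 CPM in the 30 stroma-bearing libraries. The part of that lower hepatoma share in the levels of DDIT3 and HERPUD1 was not tested.

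Levels over all 4 combinations of medium and insulin were available in the 30 stroma-bearing libraries, on a CPM scale of their own. HSPA5 averaged 1210 ± 146 CPM in untreated resistant medium (SD, n = 6), 1180 ± 268 CPM in resistant medium with insulin (n = 9), 3410 ± 1220 CPM in normal medium with insulin (n = 6) and 1170 ± 177 CPM in untreated normal medium (n = 9). Its insulin-stimulated normal-medium libraries, at 2310 to 5540 CPM, were above every other library, and DDIT3 and HK2 had the same layout, with 92.6 ± 16.8 and 210 ± 60.7 CPM in that group. ICAM1 averaged 298 ± 47.9 CPM in untreated resistant medium, 239 ± 19.5 CPM in resistant medium with insulin, 56.0 ± 6.08 CPM in normal medium with insulin and 47.7 ± 9.27 CPM in untreated normal medium. BIRC3 and PTAFR were arranged like ICAM1, by medium. CXCL8 averaged 111 ± 20.7 CPM in untreated resistant medium, 86.5 ± 7.31 CPM in resistant medium with insulin, 19.1 ± 3.29 CPM in normal medium with insulin and 6.82 ± 2.26 CPM in untreated normal medium. IGFBP1 averaged 155 ± 47.3 CPM in untreated resistant medium, 128 ± 11.9 CPM in resistant medium with insulin, 546 ± 267 CPM in normal medium with insulin and 479 ± 151 CPM in untreated normal medium. FABP1 averaged 257 ± 43.8 CPM in untreated resistant medium, 231 ± 16.1 CPM in resistant medium with insulin, 87.3 ± 13.3 CPM in normal medium with insulin and 155 ± 27.4 CPM in untreated normal medium. These values describe stroma-bearing cultures, and no statement is made from them about the missing stroma-free group.

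**Figure D4:**
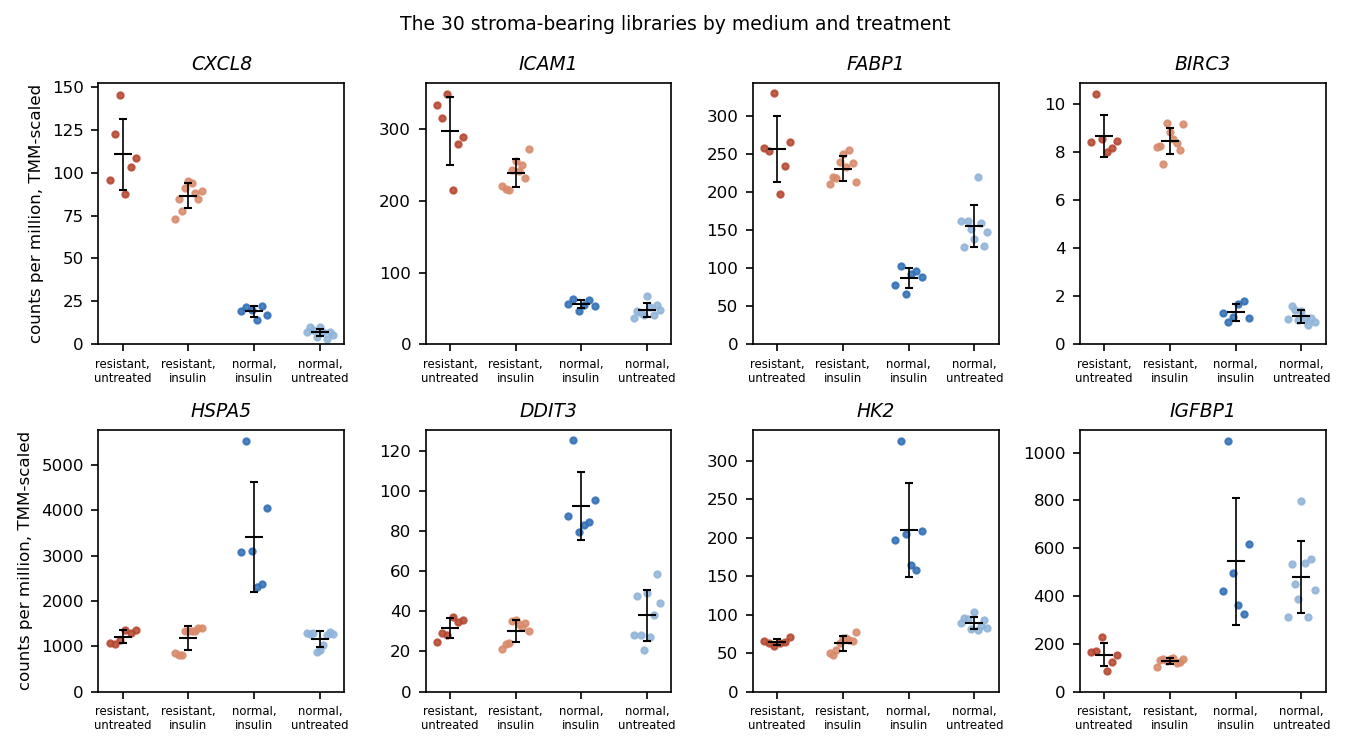
CPM of 8 genes in the 30 stroma-bearing libraries by medium and treatment, with points for libraries and black bars for mean ± SD (n = 6, 9, 6 and 9 from left to right). HSPA5, DDIT3 and HK2 are highest in insulin-stimulated normal medium, while CXCL8, ICAM1 and BIRC3 are high in both resistant-medium groups.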

How the data were processed

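RNA was sequenced from poly-A selected, strand-specific libraries of 36 samples. The authors deposited 1 table of estimated counts for 57771 gene IDs, and 15.5% of its values were not whole numbers. STAR, Salmon and GRCh37 appear in the submitters' processing notes, with no role or version, and no source used here gives the strand setting or annotation release of the counting. Symbols came from an annotation table that matched 90.0% of IDs. Depth was 26.6 to 66.9 M counts in the 6 stroma-free libraries and 56.4 to 116.8 M in the 30 others, and mitochondrial shares were lower in those 30, at 1.68% to 4.19%.

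Counts were rounded to whole numbers and fitted in R 4.3.3 with edgeR 4.0.16 (limma 3.58.1), using TMM scaling, the default expression filter and the robust quasi-likelihood test, separately for the 6 stroma-free libraries, for 12 stroma-bearing libraries of the same labelled groups, and for the difference of these contrasts over 18 libraries. P-values were adjusted over all genes tested by the Benjamini-Hochberg method, with 0.05 as the threshold. CPM values are scaled by TMM within each fit, except where they are given as CPM of the library total. The test was run on simulated data with known changes before use. Alternatives were DESeq2 1.42.0, other scalings and filters, a batch term, a minimum fold, all 36 libraries in 1 fit and each library left out; scaling by library totals and replicates 7 to 9 without a block were chosen after seeing the data.

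Genes were named by rule: 32 key genes, the 10 highest and 10 lowest called genes with a mean of at least 5 CPM and groups that did not overlap, and up to 4 called members of each list per direction with the smallest adjusted p. The members and lists were chosen with earlier results of these data known. Some genes of the lists are not reported here. Promoter windows are from RefSeq (GRCh38.p14) and are not in the build of the counts.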

Additional observations from a re-analysis of the deposited data

Results flagged for a closer look

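For 17 of 208 named genes the contrast of resistant medium over acute insulin differed between stroma-free and stroma-bearing libraries. The threshold was an edgeR adjusted p under 0.05 for the difference itself, given here as stroma-free minus stroma-bearing on the log2 scale. Over all genes 251 of 18488 (1.36%) passed it. Named genes were picked in part for their stroma-free values, which enter the difference, so a larger share was favoured by the choice. The 17 are therefore a description. The stroma-free value was above for HDAC9 (4.50), MT1E (3.25), C1S (3.24), ARRDC4 (2.94), IGFBP2 (2.09), HLA-B (1.57), AGPAT2 (1.33), TAPBP (0.94) and LPIN1 (0.52). It was below for PDGFRB (-2.54), SLC22A15 (-2.09), DDIT3 (-1.32), HERPUD1 (-1.23), PPP1R15A (-0.94), SESN2 (-0.82), PCK2 (-0.80) and INHBE (-0.65). HDAC9, C1S, ARRDC4, IGFBP2, HLA-B, AGPAT2, DDIT3 and HERPUD1 stayed past the threshold in all 13 alternatives run for the difference. The other 9 genes lost it in at least 1. No alternative for the difference left out a stroma-bearing library, so stability was examined for the fit and the stroma-free libraries only. For genes picked on these libraries it adds no support. PDGFRB is a stromal marker, the kind of gene by which the libraries were divided. ARRDC4, an arrestin-domain protein induced by glucose, and AGPAT2, an acyltransferase of triglyceride synthesis, were 3.79-fold and 2.85-fold higher in stroma-free resistant-medium libraries.

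In stroma-bearing libraries, 7 values stood apart from the rest of their group by Dixon's criterion, which chance meets in about 1 of 20 groups. They were DDIT3 (125 CPM) and HK2 (326 CPM) in insulin-stimulated replicate 2, BIRC3 (10.4 CPM) in untreated resistant-medium replicate 5 and AKR1C2 (22.0 CPM) in untreated resistant-medium replicate 6. In untreated normal medium they were IGFBP1 in replicate 5 (799 CPM) and FABP1 (219 CPM) and AKR1C2 (106 CPM) in replicate 6.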

How the results depend on the processing

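Of the 202 named genes called in the stroma-free libraries, 201 stayed called with the DESeq2 test, 194 with batch as a term, 187 with library totals, 164 with all 36 libraries and a batch term, and 182 to 199 when 1 library was left out. Only 107 passed a minimum change of 1.5-fold, which called 1050 genes higher and 611 lower in all. Library totals gave 2464 genes lower. With 1 library left out, 3068 to 4011 genes were higher and 3229 to 4202 lower. In the stroma-bearing libraries these ranges were 1850 to 2727 and 1516 to 2292. For the difference of the contrasts they were 69 to 94 above 0 and 9 to 25 below. That difference had 569 genes above and 143 below by DESeq2, 113 and 115 with batch as a term, 450 above with library totals, 23 below with no filter and 120 below with a minimum count of 100; the cause was not tested. HAMP changed to 0.20 within the 22 April batch.

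No paired analysis was possible because the stroma-free groups carry replicates 1 to 3 and 4 to 6. Stroma-bearing replicates 7 to 9 share a number and a dated batch between the groups, 22 April for 7 and 8 and 11 April for 9. Same-numbered deviations correlated at 0.41, 0.095 and 0.25. Each was above that library's correlation with any other number, by little for replicate 8 (0.089). The replicate block therefore takes up batch as well as number. In those replicates the replicate block gave 3520 genes higher and 3641 lower, against 3105 and 3178 without the block, and C1S was -0.54 with the block and -0.53 without it, and IGFBP2 was -0.30 with the block.

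List medians for NF-kB genes ranged over the alternatives from 1.47 to 2.16, for ER chaperones from -1.44 to -1.08 and for ATF4 genes from -1.23 to -0.93. Medians of 12 lists, all within 0.25 of 0, changed sign in at least 1 alternative. Depth limits the genes below the filter, among them G6PC1, IRS2 and FGF21. With 3 libraries a group and 1 library set per group, the set cannot be told apart from the condition.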
